A study of Saccharomyces cerevisiae with 51 samples.

Results

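The a-type mating and pheromone genes of budding yeast are described here as 9 genes taken by name: MFA1, MFA2, STE6, STE2, ASG7, BAR1, AGA1, AGA2 and FUS1. All 9 were found among the 6840 genes of the metabolic cycle RNA table and the 6821 genes of the rapamycin RNA table, and 8 of them (not STE6) among the 5193 genes of the ATAC table. RNA came from CEN.PK in which ARP5 was replaced by the KAN cassette (arp5∆) and from wild-type CEN.PK, sampled at 6 phases of the metabolic cycle: RC start, RC mid, OX mid, OX late, RB start and RB late (reductive charging, oxidative and reductive building). INO80, a chromatin remodeller that slides nucleosomes, contains Arp5. Per the labels, the 2 libraries of each of the 12 groups (A and B) are technical replicates, with separate RNA preparations of the same culture, so p-values by phase measure technical spread and each genotype rests on 1 culture. ATAC libraries, which read out open chromatin by transposition, numbered 12 for arp5∆ and 12 for wild type. Their columns name the genotype but no phase. The rapamycin set came from asynchronous mid-log cultures of BY4741, a laboratory haploid of mating type a, with 2 biological replicates each of the control, of 45 min and of 90 min in rapamycin at 30 nM. Rapamycin inhibits TORC1, a kinase that promotes growth. The labels do not state the mating type or ploidy of the CEN.PK strains.

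Haploid yeast cells of mating type a secrete the lipid-modified peptide a-factor and respond to α-factor from the opposite type. Binding of α-factor to its receptor starts a G-protein and MAP kinase cascade that ends at the transcription factor Ste12, arrests the cell cycle, and raises genes for agglutination, fusion and signal damping. The a-specific genes are kept off in α cells and in diploids by the α2 repressor, which acts with Mcm1. AGA1 and FUS1 differ from the other 7 in that both mating types express them in response to pheromone.

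MFA1 (YDR461W) lies on chromosome IV at 1385176 to 1385286 and MFA2 (YNL145W) on chromosome XIV at 352414 to 352530, in the RefSeq R64 annotation. STE6 (YKL209C) lies on chromosome XI at 42423 to 46295, STE2 (YFL026W) on VI at 82580 to 83875, ASG7 (YJL170C) on X at 101150 to 101779 and BAR1 (YIL015W) on IX at 322342 to 324105. AGA1 (YNR044W) lies on XIV at 703699 to 705876, AGA2 (YGL032C) on VII at 436570 to 436833 and FUS1 (YCL027W) on III at 71803 to 73341. All 9 are protein-coding, and none overlaps another annotated gene. The a-factor genes are very short, at 111 bases for MFA1 and 117 bases for MFA2, so their FPKM (fragments divided by gene length and by the library's scaling factor) depends strongly on how reads at gene ends were assigned, a step not described in the sources used here.

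The libraries matched their genotype labels. In arp5∆ 11 of the 12 libraries list ARP5 at 0 and 1 at 0.065 FPKM, against 46.4 to 55.7 FPKM in the wild-type libraries. Recovered read numbers were 5.03 to 9.70 M per cycle library and 9.45 to 13.6 M per rapamycin library, and the least covered value of these genes was 84 reads, for FUS1. The 7 a-cell markers (the 9 genes without AGA1 and FUS1) were detected in every RNA library. They summed to 8121 to 25385 FPKM in arp5∆, with a median of 14111, and to 3582 to 25686 FPKM in wild type, with a median of 9602.

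RNA for a gene of α cells, MF(ALPHA)1, was present in both CEN.PK strains beside that of the a-cell markers. The 5 α-specific genes summed to 238 to 828 FPKM in arp5∆, with a median of 338, and to 98.9 to 468 FPKM in wild type, with a median of 261. MF(ALPHA)1, which encodes α-factor, had 148 to 736 FPKM in arp5∆ and 20.6 to 366 FPKM in wild type. It made up 62.7% to 88.6% of the sum of group means in arp5∆, and 22.4% (RC start) to 77.5% (OX mid) in wild type. In BY4741 the 5 genes summed to 89.2 to 94.5 FPKM in the control and 188 to 203 FPKM at 90 min. There MF(ALPHA)1 had 0.600 to 1.45 FPKM. MF(ALPHA)2, SAG1 and AFB1 averaged 18.9, 22.9 and 45.4 FPKM in the BY4741 control, no lower than in wild-type CEN.PK. The sum is therefore no sign of mating type by itself. STE3, the a-factor receptor, had 19.0 to 28.8 FPKM in arp5∆, 9.36 to 22.2 FPKM in wild type and 2.84 to 7.33 FPKM in BY4741. None of the 5 was at 0 in any group, those of BY4741 included. The values of MF(ALPHA)1 are set beside those of the a-type genes below, and its part in their differences was not tested. Transcripts of the silent and expressed mating-type cassettes share sequence, so their values are not used to assign a mating type.

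Every a-type mating gene changed over the cycle in wild type, and the mean of every one was highest at OX late there, although for FUS1 the libraries of OX late and RB start overlapped. In arp5∆ 6 of the 9 were highest at RC start, MFA1 and AGA2 at RC mid, and ASG7 at OX mid with RC mid within its library spread. OX late held the highest mean of 5.76% of the 4042 genes that cycled in wild type, and RC start that of 46.5% of the 2104 that cycled in arp5∆. In bulk RNA, more cells expressing a gene and more RNA per cell cannot be told apart.

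MFA1 and MFA2, which encode the precursors of a-factor, were the most abundant of the 9 genes. MFA1 ranked 2nd to 385th and MFA2 2nd to 183rd among all genes by mean FPKM over the 12 groups. Over the 6 phase means MFA1 averaged 7576 ± 3364 FPKM in arp5∆ and 5164 ± 4248 FPKM in wild type (SD, n = 6 phases). MFA2 averaged 6900 ± 3688 FPKM in arp5∆ and 5117 ± 3381 FPKM in wild type. These SDs are the swing over the cycle, and the order of MFA1 and MFA2 within a library is given by their ratio below.

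MFA1 at RC start had 10256 and 9779 FPKM in arp5∆, against 2654 and 2601 FPKM in wild type. At RC mid it had 11753 and 11993 FPKM in arp5∆, against 699 and 755 FPKM in wild type, its lowest point. At OX mid it had 8746 and 9518 FPKM in arp5∆, against 3380 and 3349 FPKM in wild type. In all 3 of these phases both arp5∆ libraries stood above both wild-type libraries. The order was the opposite in the later phases: OX late had 7228 and 6623 FPKM in arp5∆, against 12975 and 12749 FPKM in wild type. RB start had 4014 and 3905 FPKM in arp5∆, against 6207 and 6621 FPKM in wild type. RB late had 3498 and 3598 FPKM in arp5∆, against 5130 and 4849 FPKM in wild type. On log2(FPKM + 1) the difference at RC mid was 4.03 ± 0.05 (SE, limma adjusted p = 7.62e-20), the widest of any of these genes in any phase.

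MFA2 followed another course. At RC start it had 13168 and 12654 FPKM in arp5∆, against 1359 and 1332 FPKM in wild type, a log2 difference of 3.26 ± 0.04 (SE, limma adjusted p = 3.36e-20). RC mid had 9736 and 9663 FPKM in arp5∆, against 2523 and 2500 FPKM in wild type, and at OX late 3830 and 3702 FPKM in arp5∆, against 10730 and 10759 FPKM in wild type. The groups were separate in each of these phases, with arp5∆ higher in the first pair and lower at OX late. At OX mid the log2 difference was 0.20 and was not called.

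STE6, the transporter that exports a-factor, was the least abundant of the 9 genes in arp5∆. It had 69.0 and 70.7 FPKM in arp5∆ at RC start, against 10.4 and 12.8 FPKM in wild type. At OX late it had 25.4 FPKM in both arp5∆ libraries, against 81.4 and 77.0 FPKM in wild type. The first difference was 2.50 ± 0.09 and the second -1.60 ± 0.09 on the log2 scale (SE, limma adjusted p = 4.82e-14 and 4.55e-11). A list for a-factor processing held 6 genes (RAM1, RAM2, STE14, RCE1, STE24 and AXL1), which farnesylate, clip and methylate the peptide. At RC start 0 of the 6 were higher and 1 was lower, STE24. Of all 6510 genes tested, 1252 were higher there and 1098 lower. The list median was 0.42, against 0.01 over all genes tested. This list summed to 344 to 374 FPKM in arp5∆ and 303 to 399 FPKM in wild type.

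**Figure D1:**
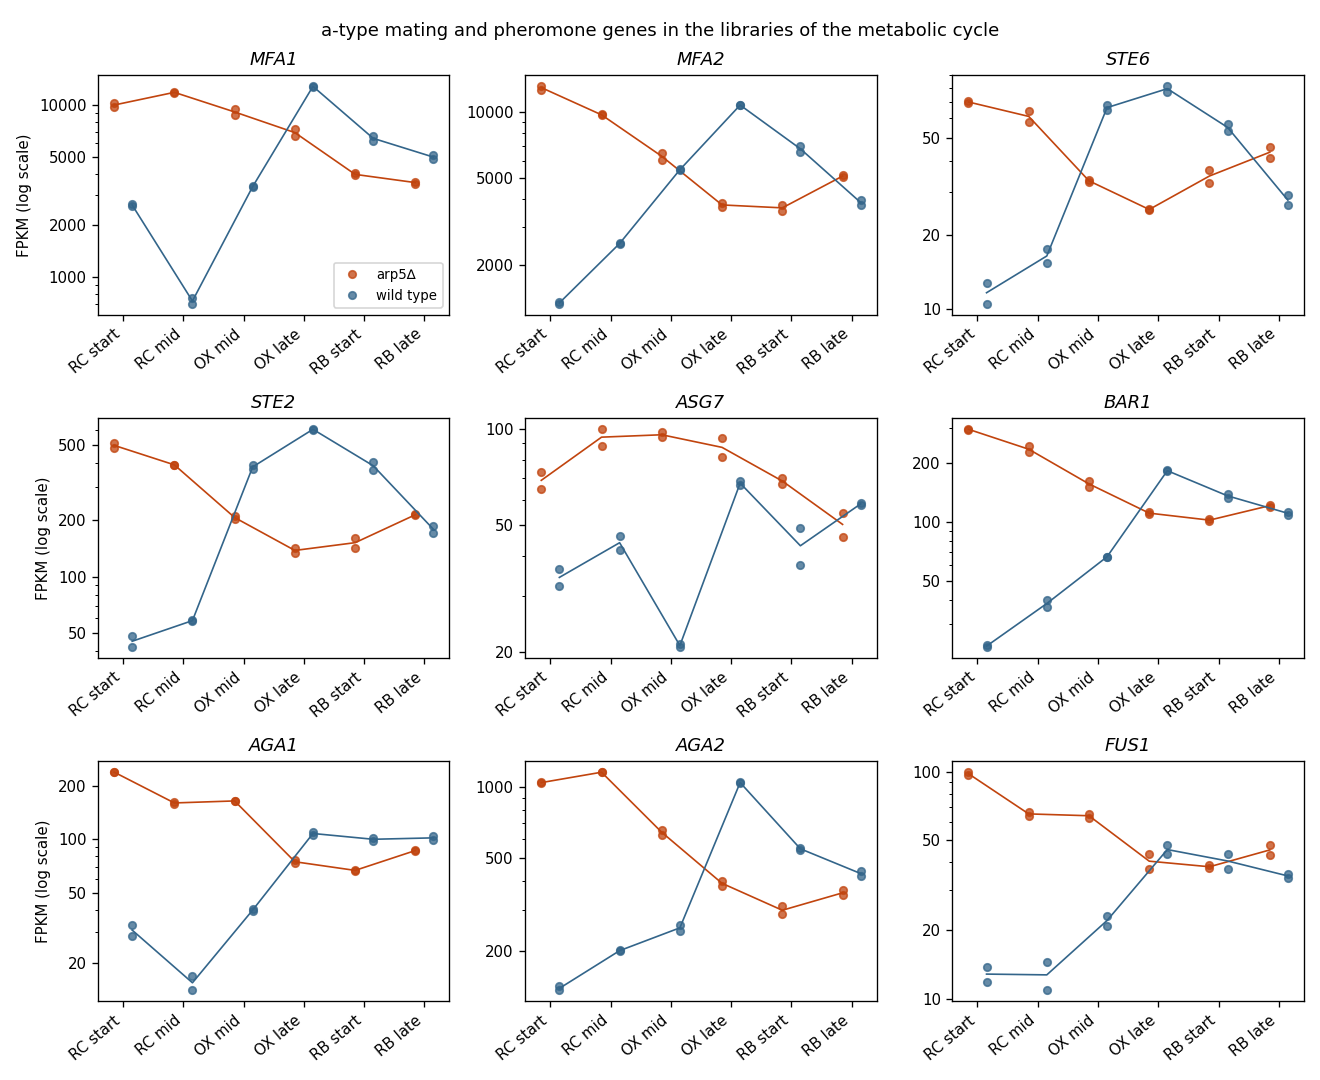
FPKM (log axis) of the 9 genes in every cycle library by labelled phase; points are libraries A and B, lines join their means, arp5∆ is red and left of wild type in blue. The wild-type mean is highest at OX late in all 9 panels, while arp5∆ is highest at RC start in 6, at RC mid for MFA1 and AGA2, and at OX mid, close to RC mid, for ASG7.

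STE2 encodes the α-factor receptor, and it had the widest swing in genotype difference of the 9 genes. At RC start it had 481 and 513 FPKM in arp5∆, against 42.2 and 48.5 FPKM in wild type. RC mid had 391 and 392 FPKM in arp5∆, against 58.2 and 58.4 FPKM in wild type. At OX late it had 134 and 141 FPKM in arp5∆, against 608 and 602 FPKM in wild type. Libraries of the same group lay close together, and the genotypes exchanged places between RC mid and OX mid. The log2 difference was 3.43 ± 0.07 at RC start and -2.13 ± 0.07 at OX late (SE, limma adjusted p = 1.03e-17 and 1.24e-14). STE2 was also lower in arp5∆ at RB start, with a log2 difference of -1.35, and was the only one of the 9 called there. Its mean over the 6 phases was 266 ± 145 FPKM in arp5∆ and 276 ± 220 FPKM in wild type (SD, n = 6 phases).

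BAR1, the secreted protease that degrades α-factor, had 297 and 294 FPKM in arp5∆ at RC start, against 23.5 and 22.9 FPKM in wild type. This log2 difference of 3.61 ± 0.05 was the largest of the 9 genes at RC start (SE, limma adjusted p = 1.04e-19). At OX late BAR1 had 109 and 112 FPKM in arp5∆, against 181 and 182 FPKM in wild type. Both differences exceeded the library spread, but the one at OX late, -0.71, was short of the log2 limit of 1 that a call needs. The lowest arp5∆ library had 101 FPKM and the lowest wild-type library 22.9 FPKM.

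ASG7 encodes an a-specific protein that acts on pheromone signalling after mating. It had 97.4 and 94.2 FPKM in arp5∆ at OX mid, against 21.2 and 20.7 FPKM in wild type, a log2 difference of 2.14 ± 0.11 (SE, limma adjusted p = 6.76e-12). At RC start it had 64.7 and 73.2 FPKM in arp5∆, against 36.3 and 32.1 FPKM in wild type. RC mid had 99.9 and 88.4 FPKM in arp5∆, against 41.7 and 46.2 FPKM in wild type. OX mid was therefore the lowest phase of ASG7 in wild type, while in arp5∆ its means at OX mid and RC mid, 95.8 and 94.1 FPKM, were the highest and their libraries overlapped. Its call was close to the limit at 2 phases: the log2 difference at RC start was 0.99, and 1.08 without library A of either genotype, while that at RC mid was 1.08, and 0.99 without arp5∆ library A.

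AGA1 and AGA2 encode the anchor and the adhesive subunit of a-agglutinin, which binds cells of the opposite type. AGA1 had 238 FPKM in both arp5∆ libraries at RC start, against 28.6 and 32.8 FPKM in wild type. At RC mid it had 162 and 158 FPKM in arp5∆, against 14.1 and 17.0 FPKM in wild type. At OX mid it had 164 FPKM in both arp5∆ libraries, against 40.4 and 39.3 FPKM in wild type. These were log2 differences of 2.92, 3.29 and 2.01, each with an SE of 0.07. In wild type AGA1 stayed near its highest level after OX late, at 102 and 98.0 FPKM at RB start and 99.4 and 104 FPKM at RB late.

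AGA2 had 1049 and 1036 FPKM in arp5∆ at RC start, against 137 and 142 FPKM in wild type. At OX late it had 400 and 379 FPKM in arp5∆, against 1042 and 1045 FPKM in wild type. The log2 differences were 2.89 ± 0.05 and -1.42 ± 0.05 (SE, limma adjusted p = 6.77e-19 and 1.51e-14). AGA1 was lower in arp5∆ at OX late too, but by less, at -0.52, which was short of the log2 limit of 1.

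FUS1, a membrane protein of cell fusion and a common reporter of the pheromone pathway, had 96.3 and 99.5 FPKM in arp5∆ at RC start, against 11.8 and 13.8 FPKM in wild type. At OX late it had 37.3 and 43.2 FPKM in arp5∆, against 43.2 and 47.5 FPKM in wild type. The genotypes were far apart at RC start, with a log2 difference of 2.84 ± 0.11 (SE, limma adjusted p = 1.59e-13), and met at OX late. FUS1 had no called fall in arp5∆ at any phase.

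A call here needs an adjusted p under 0.05 over all 6510 genes tested and a log2 difference of at least 1. At RC start 8 of the 9 genes were higher in arp5∆, where 19.2% of all genes tested were. At RC mid 9 of 9 were higher, where 9.92% of all genes were, and at OX mid 6 of 9, where 21.7% of all genes were. The 3 not called at OX mid were MFA2, STE2 and STE6, at 0.20, -0.89 and -0.97. STE6 was called lower there, at -1.01, without wild-type library A.

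The balance turned in the second part of the labelled cycle. At OX late 4 of 9 genes were lower in arp5∆ (STE2, STE6, MFA2 and AGA2) and 0 were higher, where 13.5% of all genes tested were lower and 14.7% higher. After quantile normalization MFA1, at -0.89 here, was called lower too, at -1.46, which made 5 of 9. At RB start 1 of 9 was lower, where 8.69% of all genes were. At RB late limma called 0 of 9, where it called 22.2% of all genes in either direction, although 8 of the 9 had an unadjusted p under 0.05, as did 72.9% of all genes, and their differences ran from -0.49 for MFA1 to 0.63 for STE6.

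**Figure D2:**
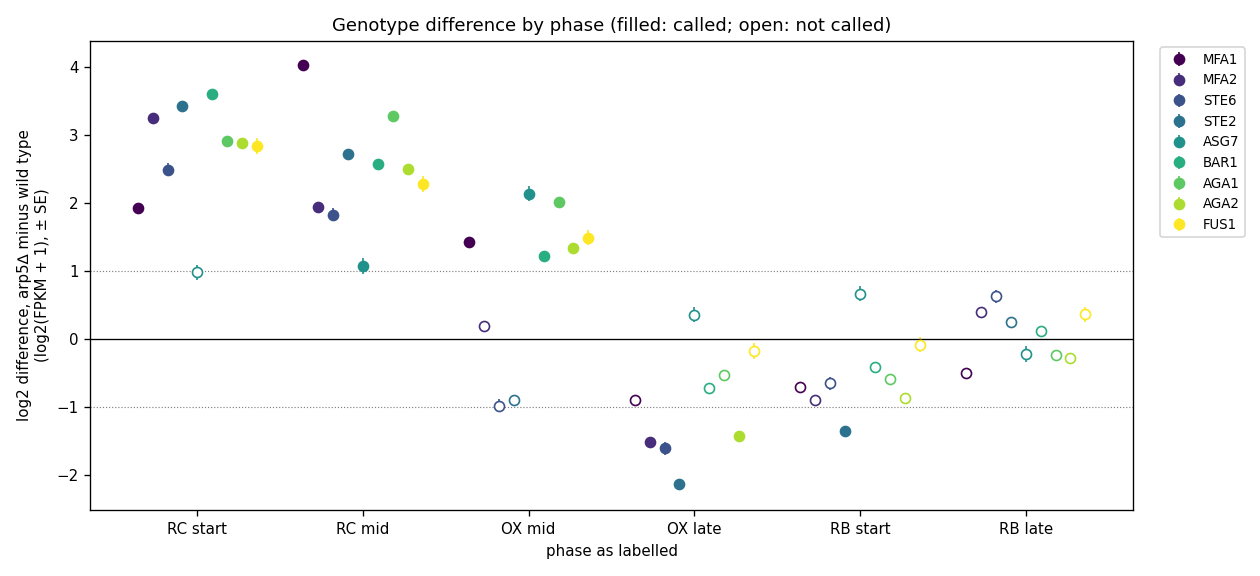
Difference arp5∆ minus wild type in log2(FPKM + 1), ± SE, for the 9 genes at each labelled phase; filled points passed the adjusted p and the log2 limit of 1 (dotted lines). All points lie above 0 at RC start and RC mid, and from OX late to RB start only ASG7 lies above 0.

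The course over the phases differed between arp5∆ and wild type for 9 of 9 genes (limma F test of the interaction), where 74% of all genes tested passed. The genotype difference ranged over the phases by 5.56 for STE2, 4.92 for MFA1, 4.77 for MFA2 and 4.33 for BAR1 on the log2 scale, and least, by 2.36, for ASG7. The median range was 4.31 for the 9 genes and 1.81 for all genes tested. Within arp5∆ 8 of 9 passed the F test for cycling with a range of at least 1, where 32.3% of all genes did, and within wild type 9 of 9, where 62.1% did. The gene short of the range in arp5∆ was ASG7, at 0.92, and it reached 1.05 without arp5∆ RB late library A.

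The swing of each gene was narrower in arp5∆. The highest phase mean of MFA1 was 3.35 times the lowest in arp5∆ and 17.7 times in wild type. For STE2 it was 3.61 times in arp5∆ and 13.3 times in wild type, and for BAR1 2.90 times in arp5∆ and 7.83 times in wild type. The ratio was smaller in arp5∆ for 9 of 9 genes, as it was for 89.3% of all genes tested. The lowest phase mean was higher in arp5∆ for 9 of 9, against 73.1% of all genes, and the highest phase mean was higher in arp5∆ for 6 of 9 (all but MFA1, STE2 and STE6), against 27.7% of all genes.

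The labelled phases did not hold matching profiles in the 2 genotypes. Across 4108 cycling genes outside the 9, each centred within its genotype, arp5∆ at RC start correlated best with wild type at OX mid (r = 0.86) and with wild type at RC start at r = -0.85. The arp5∆ RC mid profile was nearest to wild-type OX late (r = 0.72). For all 6 phases the correlation between equally labelled phases was negative, from -0.85 to -0.44. These r describe genes within the same libraries, which are not independent replicates. The part of this offset in the phase-by-phase differences was not tested.

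The mean over the 6 phases does not depend on which phases are set beside each other. It was higher in arp5∆ for 8 of 9 genes on the FPKM scale, where it was for 41.6% of all genes tested, and all but STE2 were in that number. With the phase as the unit (limma on 12 phase means, phase as a block) the log2 difference was 1.15 ± 0.63 for AGA1, 1.12 ± 0.45 for FUS1, 1.07 ± 0.61 for BAR1, 0.89 ± 0.75 for MFA1 and 0.84 ± 0.30 for ASG7 (SE). It was 0.70 ± 0.65 for AGA2, 0.57 ± 0.70 for MFA2, 0.34 ± 0.80 for STE2 and 0.29 ± 0.58 for STE6. The adjusted p lay between 0.225 and 0.932, and limma called 0 of 9, where 1.52% of all genes were called. The phases are serial samples of 1 culture per genotype, so these p-values measure spread between phases, not between cultures. FUS1 and ASG7 had an unadjusted p under 0.05, as did 15.6% of all genes.

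The best-matching wild-type phase lay 2 phases ahead for arp5∆ RC start, RC mid and RB start. It lay 3 phases ahead for OX mid, OX late and RB late, so no single move paired every phase with its best match. Pairing the phases by their order in each series, with the arp5∆ series moved by 3 phases, left each mean as it was and narrowed the error. Under that pairing 3 of 9 were called higher, where 2.64% of all genes were: FUS1 at 1.12 ± 0.15 (SE, limma adjusted p = 0.00568), AGA1 at 1.15 ± 0.19 (adjusted p = 0.0116) and BAR1 at 1.07 ± 0.23 (adjusted p = 0.0263). With the series moved by 2 phases 1 of 9 was called, FUS1 (limma adjusted p = 0.0277), where 2.89% of all genes were called higher. Under either move the p-values measure spread between phases of 1 culture per genotype. Both moves follow the best matches found in these same libraries, over genes outside the 9. The pairing is thus not independent of the values tested, and its errors and p-values may be too small.

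ASG7 differed from the other 8 genes in course by its median correlation, although the ranges overlapped. Over the 12 group means of log2 levels the Pearson correlation of the 28 pairs without ASG7 ran from 0.64 to 0.98, with a median of 0.84, and that of the 8 pairs with ASG7 from 0.12 to 0.69, with a median of 0.62. Within arp5∆ pairs without ASG7 ran from 0.42 (MFA1 with STE6) to 0.99 (MFA2 with BAR1), and within wild type from 0.65 to 0.99 (n = 6 phases each). Pairs with ASG7 ran from -0.19 to 0.76 (with MFA1) in arp5∆, with a median of 0.22. In wild type they ran from 0.04 to 0.65, with a median of 0.44. These points share their libraries and scaling.

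The a-factor genes exchanged order within the cycle. MFA1 over MFA2 was 0.773 and 0.779 in the arp5∆ libraries at RC start, against 1.95 in both wild-type libraries. At RC mid it was 1.21 and 1.24 in arp5∆, against 0.277 and 0.302 in wild type. At OX late it was 1.79 and 1.89 in arp5∆, against 1.19 and 1.21 in wild type. MFA2 was the more abundant gene at RC start and RB late in arp5∆, and at RC mid and OX mid in wild type. In wild type RB start the 2 libraries fell on either side of 1, at 0.889 and 1.00. The ratio is formed within a library and so does not depend on the library's scaling.

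**Figure D3:**
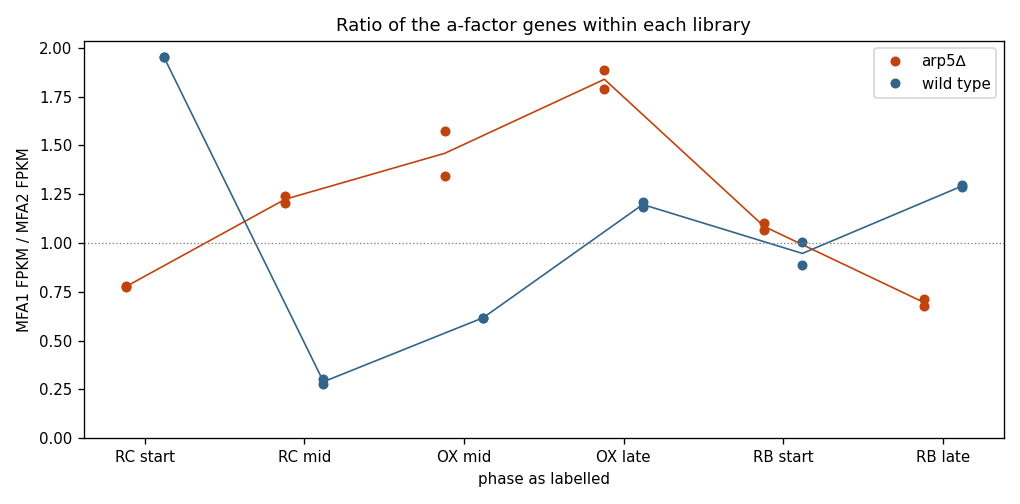
Ratio of MFA1 to MFA2 FPKM within each cycle library by labelled phase, arp5∆ (red) left of wild type (blue), points for libraries A and B and lines through their means; the dotted line marks 1. The wild-type ratio is lowest at RC mid, at 0.277 and 0.302, where the arp5∆ ratio is 1.21 and 1.24.

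AGA2 over AGA1, on the FPKM scale, stayed between 3.82 and 7.32 in arp5∆ and between 4.03 and 14.4 in wild type, with the highest values of both genotypes at RC mid. STE2 over STE6 ran from 4.34 to 7.26 in arp5∆ and from 3.33 to 7.82 in wild type. Each ratio covered a wider span in wild type than in arp5∆.

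By Pearson correlation with the mean profile of the 9 genes over the 24 cycle libraries, among 5879 genes ranked, the 5 most alike outside them were GIC2 (r = 0.944), HBN1 (0.940), KAR4 (0.933), PRY2 (0.933) and SCW10 (0.931). GIC2 is an effector of the polarity GTPase Cdc42, KAR4 a transcription factor of nuclear fusion genes, PRY2 a secreted sterol-binding protein and SCW10 a cell wall protein. The 9 genes themselves had r from 0.611 for ASG7 to 0.983 for BAR1 with this mean, which includes them. The 5 were ranked on these same libraries, so a difference like that of the 9 genes at RC start follows from the ranking. GIC2 averaged 182 ± 1.4 FPKM in arp5∆ at RC start and 9.81 ± 1.1 FPKM in wild type (SD, n = 2 libraries each). SCW10 averaged 1320 ± 68 FPKM in arp5∆ at RC start and 139 ± 5.6 FPKM in wild type. HBN1 lies 63 bases from FUS1, and reads could be shared between the pair.

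The other genes of the pathway, from lists taken from textbook knowledge, were counted by the same rule. Of 14 pheromone-induced mating genes 8 were higher and 1 lower in arp5∆ at RC start, and 9 were higher and 0 lower at RC mid, with list medians of 1.06 and 1.28 against 0.01 and 0.00 over all genes. Of 15 signalling genes 8 were higher at RC start and 3 at RC mid, and none was lower. Of all 6510 genes tested, 1252 were higher and 1098 lower at RC start, and 646 higher and 720 lower at RC mid. FAR1, the inhibitor that arrests the cell cycle, averaged 93.8 ± 3.8 FPKM in arp5∆ at RC start and 5.63 ± 0.09 FPKM in wild type (SD, n = 2 libraries each), a log2 difference of 3.84 ± 0.06. SST2, which damps the G protein, averaged 44.5 ± 1.0 FPKM in arp5∆ and 12.2 ± 0.61 FPKM in wild type at RC start, and GPA1, the G protein α subunit, 162 ± 6.3 FPKM in arp5∆ and 45.3 ± 1.2 FPKM in wild type.

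At OX late 3 of 15 signalling genes were lower in arp5∆ (FAR1, FUS3 and SST2) and 0 were higher, where 13.5% of all genes were lower and 14.7% higher. The list's median was -0.17. Of the pheromone-induced genes 3 were higher and 1 lower at that phase.

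MF(ALPHA)1 was higher in arp5∆ at RC start and RC mid, as the a-type genes were, and its difference lay above all of theirs at RC start and RB late. It averaged 720 ± 23 FPKM in arp5∆ at RC start and 22.8 ± 3.1 FPKM in wild type (SD, n = 2 libraries each), a log2 difference of 4.93 ± 0.07 (SE, limma adjusted p = 9.69e-20). At RC mid it averaged 510 ± 17 FPKM in arp5∆ and 37.2 ± 2.3 FPKM in wild type. At OX late it averaged 173 ± 5.5 FPKM in arp5∆ and 227 ± 3.6 FPKM in wild type, with no call. Its log2 difference was -0.38 at OX mid and -0.96 at RB start, neither called and both within the range of the 9 genes. At RB late the difference was 1.20, and MF(ALPHA)1 was called higher, where none of the 9 was. Its highest wild-type mean was at OX mid, at 361 FPKM. Its correlation with the mean profile of the 9 genes over the 24 libraries was 0.885. Of the other α-specific genes 1 was higher at RC start, STE3, where 19.2% of all genes tested were. MF(ALPHA)2, SAG1 and AFB1 were not called there.

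Over the cycle 2 of the 14 pheromone-induced genes were called higher in arp5∆, and both were low or moderate in level. Of all 6510 genes tested, 66 were called higher and 33 lower. FIG1, needed for calcium influx during mating, had 5.58 to 11.6 FPKM across arp5∆ libraries and 0.888 to 2.59 FPKM across wild-type libraries, with no overlap and a log2 difference of 1.72 ± 0.19 (SE, limma adjusted p = 0.0117). PRM3, a protein of nuclear fusion, had a log2 difference of 1.73 ± 0.22 (adjusted p = 0.019). Of 5 α-specific genes AFB1, an a-factor barrier protein, was lower, at -1.09 ± 0.16 (adjusted p = 0.0306). NEJ1, a haploid-specific gene of DNA end joining, was lower, at -1.75 ± 0.18 (adjusted p = 0.00854), and SPO11, which makes meiotic breaks, was higher, at 1.85 ± 0.19 (adjusted p = 0.00854). Of 15 signalling genes limma called 0 over the cycle in either direction. These p-values too measure spread between phases of 1 culture per genotype.

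In BY4741 limma called 1 of the 9 genes at 45 min in rapamycin and 7 of them at 90 min. ASG7 was the 1 gene called higher at 45 min, where 11.2% of the 6333 genes tested were. ASG7 had 20.7 and 17.2 FPKM in the control, 46.6 and 59.4 FPKM at 45 min and 102 and 122 FPKM at 90 min, in increasing steps without overlap. The log2 difference from the control was 1.43 ± 0.15 at 45 min and 2.50 ± 0.15 at 90 min (SE, limma adjusted p = 8.39e-05 and 2.84e-06). The other 8 genes lay between -0.20 (STE6) and 0.33 (BAR1) at 45 min. These 2 extremes had a limma adjusted p of 0.0101 and 0.00253 but were short of the log2 limit of 1.

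At 90 min 7 of 9 genes were higher than in the control, where 18.2% of all genes tested were, and 7 of 9 were higher than at 45 min, where 6.3% of all genes were. The comparisons at 45 and 90 min share the control samples. AGA1 had 56.4 and 61.3 FPKM in the control, 62.1 and 60.4 FPKM at 45 min and 493 and 529 FPKM at 90 min. Its log2 difference from the control at 90 min, 3.10 ± 0.06, was the largest of the 9 (SE, limma adjusted p = 1.58e-08). AGA2 had 328 and 375 FPKM in the control, 390 and 455 FPKM at 45 min and 1805 and 2148 FPKM at 90 min, a difference of 2.49 ± 0.11 at 90 min.

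FUS1 had 33.4 and 33.2 FPKM in the control, 29.5 and 29.2 FPKM at 45 min and 117 and 140 FPKM at 90 min. BAR1 had 186 and 193 FPKM in the control, 232 and 246 FPKM at 45 min and 542 and 598 FPKM at 90 min. STE2 had 613 and 627 FPKM in the control, 626 and 619 FPKM at 45 min and 1335 and 1385 FPKM at 90 min. In all 3 genes the 90 min replicates stood apart from the other 4 libraries. Their log2 differences from the control at 90 min were 1.91 ± 0.09 for FUS1, 1.58 ± 0.06 for BAR1 and 1.13 ± 0.05 for STE2.

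The a-factor genes parted under rapamycin. MFA1 had 2601 and 2617 FPKM in the control, 2536 and 2692 FPKM at 45 min and 6780 and 8062 FPKM at 90 min, a difference of 1.50 ± 0.09 from the control at 90 min. MFA2 had 6640 and 6975 FPKM in the control, 7316 and 7633 FPKM at 45 min and 9883 and 11680 FPKM at 90 min, a difference of 0.66 ± 0.09 that was short of the limit of 1. MFA1 over MFA2 was 0.392 and 0.375 in the control, 0.347 and 0.353 at 45 min and 0.686 and 0.690 at 90 min. STE6 had 88.2 and 91.0 FPKM in the control, 78.8 and 77.3 FPKM at 45 min and 95.5 and 97.1 FPKM at 90 min, a difference of 0.10 ± 0.05 at 90 min.

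The values of the a-factor genes under rapamycin depended on the scaling. Summed FPKM per rapamycin library ran from 0.920 to 1.47 M, and MFA1 ranked 135th in the control, 34th at 45 min and 12th at 90 min. MFA2 ranked 27th in the control, 8th at 45 min and 6th at 90 min. After quantile normalization MFA1 and MFA2 were called higher at 45 min, by 1.35 and 1.37, which made 3 of 9 genes called, and MFA2 was called at 90 min, by 1.42. ASG7 lost its call between 90 and 45 min without 45 min replicate 3 (0.90) or 90 min replicate 6 (0.94).

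**Figure D4:**
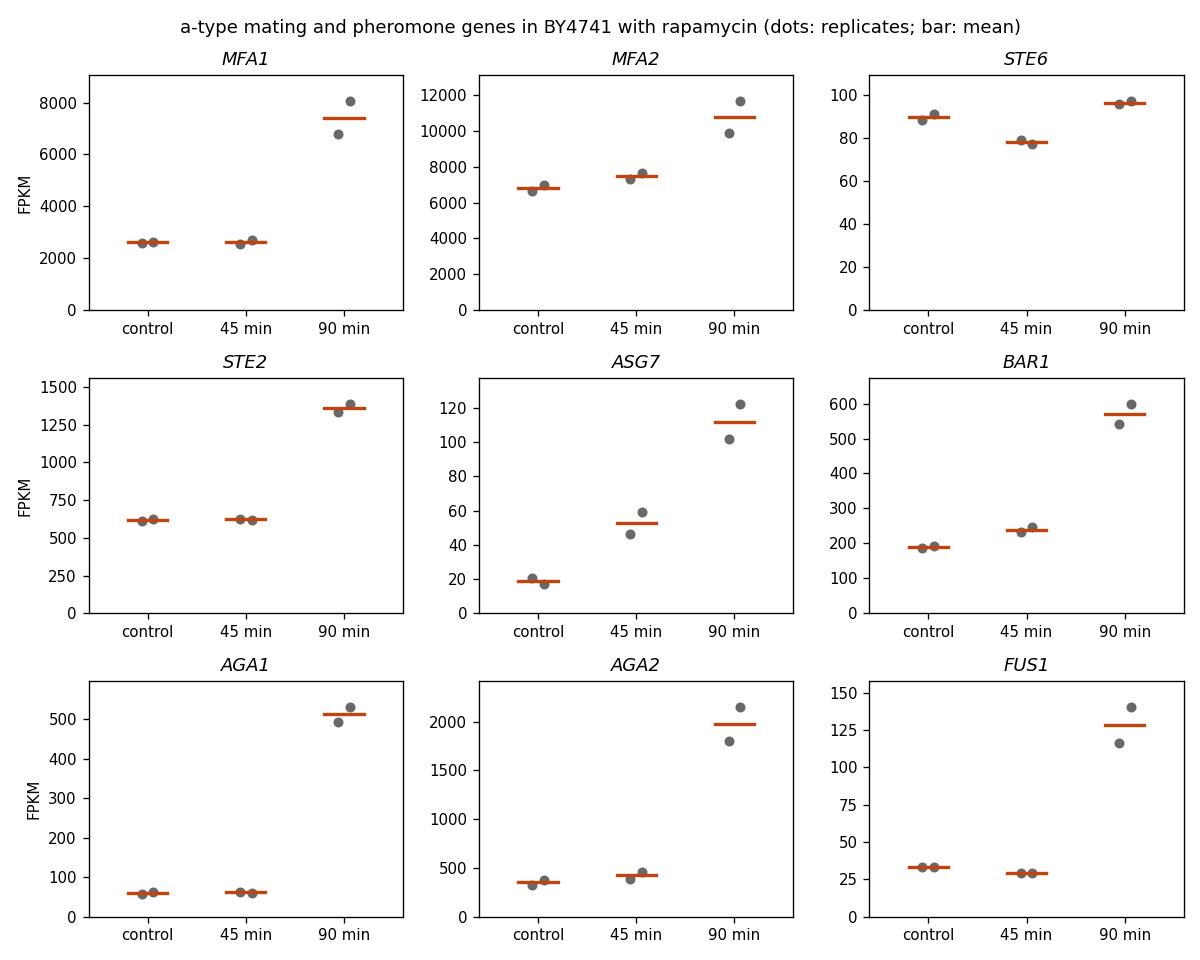
FPKM (linear axes from 0) of the 9 genes in BY4741 in the control and after 45 and 90 min in 30 nM rapamycin; dots are the 2 biological replicates and bars their mean. AGA1 stays between 56.4 and 62.1 FPKM in the control and at 45 min and reaches 493 and 529 FPKM at 90 min, while STE6 stays between 77.3 and 97.1 FPKM throughout.

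Of the 14 pheromone-induced genes 7 were higher and 1 lower at 90 min than in the control, with a list median of 0.98 against 0.02 over all genes, and 1 was higher and 2 lower at 45 min. Of all 6333 genes tested, 1151 were higher and 1065 lower at 90 min, and 709 higher and 865 lower at 45 min. PRM1, a protein of membrane fusion, averaged 13.2 ± 0.75 FPKM in the control, 16.7 ± 2.2 FPKM at 45 min and 105 ± 7.7 FPKM at 90 min (SD, n = 2 replicates each). KAR4 averaged 74.5 ± 0.69 FPKM in the control, 64.4 ± 0.88 FPKM at 45 min and 173 ± 13 FPKM at 90 min. PRM7 was the gene that fell, with a log2 difference of -3.50 ± 0.19 (SE, limma adjusted p = 2.21e-06). Of the 15 signalling genes 0 were higher and 1 was lower at 90 min, the kinase STE20 at -1.01 ± 0.06. Among α-specific genes SAG1, the agglutinin of α cells, averaged 22.9 ± 0.12 FPKM in the control, 37.8 ± 1.7 FPKM at 45 min and 83.2 ± 4.1 FPKM at 90 min.

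Among the lists for mating-type control and haploid-specific genes, RME1, a haploid repressor of meiosis, was higher at 90 min by 2.17 ± 0.06 (SE, limma adjusted p = 9.86e-08). HO, the endonuclease of mating-type switching, was lower, at -2.78 ± 0.06 (adjusted p = 1.79e-08). SIR2, the silencing deacetylase, was lower, at -1.25 ± 0.08, and SIR1 higher by 1.39 ± 0.08. RCE1, which clips the a-factor precursor, was lower, at -1.31 ± 0.09 and was the 1 called gene of the 6 for a-factor processing. Of all 6333 genes tested, 2216 were called at 90 min in either direction.

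ATAC signal was compared by genotype alone, as 1 deposited value per gene. Which window a value covers is not stated in the labels, and libraries of 1 genotype share a culture across phases and replicates, so p-values over the 12 against 12 libraries are too small. AGA1 had 243 to 343 normalized counts in arp5∆ (median 278), against 46.7 to 169 in wild type (median 95.2). The log2 difference was 1.55 ± 0.16 (SE, limma adjusted p = 1.65e-09), the 11th highest of 5193 genes, and AGA1 was the 1 gene of the 8 called, where 2.12% of all genes were called higher. The genotypes did not overlap for AGA1.

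AGA2 had 202 to 295 normalized counts in arp5∆ (median 237), against 97.2 to 175 in wild type (median 133). FUS1 had 224 to 284 in arp5∆ (median 245), against 88.5 to 203 in wild type (median 150). BAR1 had 389 to 467 in arp5∆ (median 429), against 293 to 375 in wild type (median 334). None of the 3 overlapped between genotypes, and their log2 differences of 0.86, 0.77 and 0.37 were short of the limit. With AGA1, 4 of the 8 genes had all arp5∆ libraries above all wild-type libraries, where 10.2% of all genes did.

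The a-factor and receptor genes overlapped. MFA1 had 379 to 541 normalized counts in arp5∆ (median 427), against 256 to 396 in wild type (median 324), and 11 of 12 arp5∆ libraries were above the highest wild-type library. MFA2 had 310 to 444 in arp5∆ (median 391), against 252 to 455 in wild type (median 376). STE2 had 231 to 444 in arp5∆ (median 300), against 140 to 408 in wild type (median 315). ASG7 had 83.5 to 128 in arp5∆ (median 108), against 68.1 to 124 in wild type (median 89.5). Their log2 differences were 0.45 for MFA1, 0.22 for ASG7, 0.11 for MFA2 and 0.08 for STE2. ARP5 itself kept signal, at 103 to 133 in arp5∆ and 142 to 194 in wild type.

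**Figure D5:**
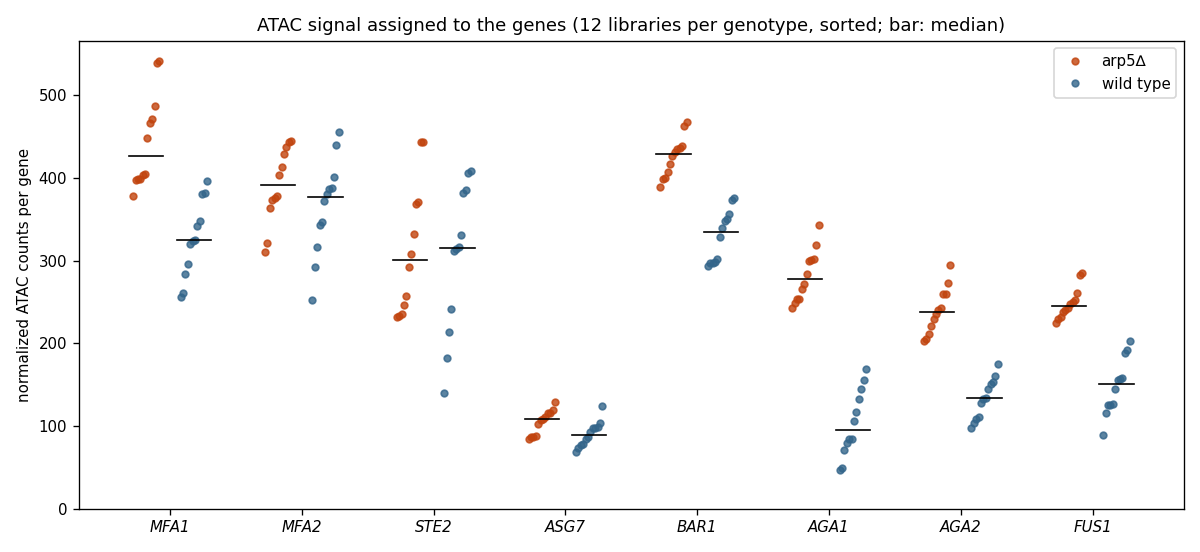
Normalized ATAC counts per gene (linear axis from 0) for the 8 genes in the ATAC table, 12 libraries per genotype sorted by value, arp5∆ (red) left of wild type (blue), bars at the medians. The clouds are apart for AGA1, AGA2, FUS1 and BAR1, and overlap for MFA1, MFA2, STE2 and ASG7.

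On the RNA side the same 4 genes, AGA1, FUS1, BAR1 and AGA2, had log2 differences over the cycle of 1.15, 1.12, 1.07 and 0.70. The 4 genes that overlapped in ATAC had 0.89 for MFA1, 0.84 for ASG7, 0.57 for MFA2 and 0.34 for STE2, so MFA1 and ASG7 were above AGA2. None of these RNA differences was called. The RNA and ATAC libraries carry the same genotype labels, and the ATAC libraries could not be matched to RNA libraries by phase.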

How the data were processed

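The authors deposited FPKM (fragments scaled by gene length and a library factor) for the RNA libraries and normalized ATAC counts per gene, a coverage signal. The submitters' processing notes name Bowtie2, DESeq2, Picard and build sacCer3, without versions; read assignment and strandedness are not given in the sources used here. Tables were scaled separately, so tests stayed within a table. Low FPKM values fell on whole reads for 96.1% to 98.7% per cycle library and 95.7% to 97.3% per rapamycin library (tolerance 0.1 read), which gave depths. ATAC library sums were 1.63 to 1.67 M, and their depth is unknown.

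limma 3.58.1 (R 4.3.3) was run on log2(value + 1). Tested genes had a table mean of at least 1, with Benjamini-Hochberg adjustment over all genes. A call needed an adjusted p under 0.05 and a log2 difference, or range over phases, of at least 1. On this scale low genes' changes are understated. Cycle groups shared 1 fit, the cycle mean used phase means with phase as a block, and rapamycin groups shared 1 fit. The ATAC value is each gene's own row; the planned choice of a region near the start was not possible with 1 value per gene. The steps were tested on simulated data. The rapamycin control's treatment text names rapamycin; it was used as control by its title.

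The genes and lists were chosen with earlier results of these data known. Named are the 9 genes, ARP5, the 5 genes with the most alike profiles, and called list genes with large differences per list and direction (over the cycle and at 90 min in rapamycin). That last set is not complete. PRM10 at 1.88 and REC8 at 1.85 were called at 90 min and left out. List genes called at 45 min, such as RME1 at 1.97 and PRM7 at -3.09, were not named for that time. Other list genes were named after their values were seen. Python 3.11.15 made the figures.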

Additional observations from a re-analysis of the deposited data

Results flagged for a closer look

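For each of the 9 genes the arp5∆ minus wild-type difference changed with the labelled phase, by the limma F test of the interaction over 6 phases. The range of the log2 difference over the phases was 5.56 for STE2, 4.92 for MFA1, 4.77 for MFA2 and 4.33 for BAR1. It was 4.31 for AGA2, 4.10 for STE6, 3.86 for AGA1, 3.01 for FUS1 and 2.36 for ASG7. The same test passed for 74% of all genes, and the phase profiles of the genotypes were offset from each other, at r = -0.85 to -0.44 for equal labels. Each genotype rests on 1 culture.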

How the results depend on the processing

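Across 125 results for single genes, 2596 of 2626 alternative values kept their direction and their side of the limit, 15 passed it newly, 3 lost it and 12 changed sign. Leaving out 1 library gave 8 to 9 genes called at RC start and at RC mid, 6 to 7 at OX mid, 4 at OX late, 1 at RB start, 0 at RB late, 8 to 9 cycling in arp5∆, 1 at 45 min, 7 at 90 min and 6 to 7 between 90 and 45 min. Quantile normalization called 5 genes at OX late (MFA1 added, -1.46), 2 at RB start (MFA2 added, -1.14), 1 at RB late (MFA2, 1.01), 3 at 45 min (MFA1 and MFA2 added) and 8 at 90 min (MFA2 added). The arp5∆ series moved by 2 or 3 phases, a pairing taken from these same libraries, called 1 or 3 genes over the cycle.

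Signs changed only where differences were not called. FUS1 at RB start ran from -0.185 to 0.027 with 1 library left out, and was 0.027 without wild-type library A. MFA1 and AGA2 at RB late were 0.169 and 0.081 after quantile normalization. Over the cycle STE2 was -0.277 without RC start and -0.137 without RC mid, and STE6 was -0.151 without RC start and -0.019 without RC mid. At 45 min, with 1 replicate left out, MFA1 ran from -0.041 to 0.045, STE2 from -0.011 to 0.022 and AGA1 from -0.001 to 0.117.

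The letters A and B did not pair libraries across groups (66 pairs, r from -0.12 to 0.19), and a replicate block left the counts at 8, 9, 6, 4, 1 and 0 genes from RC start to RB late. No filter applied to ATAC, and averaging its regions could not be run with 1 value per gene. Quantile normalization moved the median difference of all genes at RC start from 0.01 to -0.12.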
